A study of Mus musculus with 2 samples.

Results

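Chemokine-high CD8 T cells were examined among donor T cells recovered from the spleens of mice after allogeneic hematopoietic cell transplantation (allo-HCT). Its members were chosen by measured values. A cell belonged to the population when it carried CD8 and T cell receptor transcripts, no Cd4 or Foxp3 transcript, little of a set of proliferation transcripts, and at least 20 unique molecular identifiers (UMIs) of the chemokine genes Ccl1, Ccl3, Ccl4 and Xcl1 together per 10000 UMIs of the cell. Of 14973 cells that passed the filters on genes and mitochondrial UMIs, 402 met the rule, 98 at day +7 and 304 at day +14.

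C57BL/6 (H-2b) wild-type donor T cells had been given with T cell–depleted bone marrow to lethally irradiated BALB/c (H-2d) mice. Splenic cells that stained for CD45, TCRβ and the donor molecule H2kb, and not for the recipient molecule H2kd, were sorted, pooled from 5 spleens, and made into 1 droplet library for day +7 and 1 for day +14. The library names carry the word PBS, the sources differ on the number of T cells transferred, and the sort day used here is that of the sample titles, because the growth protocol names day +7 for both. With 1 library per time point no difference between days could be tested, the day cannot be told apart from the library, and no library from untreated or syngeneic mice was analysed here.

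Ccl3, Ccl4 and Ccl1 are small secreted proteins of the CC family and Xcl1 (lymphotactin) is a C-type chemokine. CD8 T cells secrete Ccl3 and Ccl4 within hours of T cell receptor engagement, and these proteins recruit other leukocytes, whereas Xcl1 attracts the cross-presenting dendritic cells that carry Xcr1, and Ccl1 binds Ccr8. T cell receptor signalling acts through calcium and NFAT, through AP-1 and through NF-kB, and rapidly induces transcription factors of the Nr4a and Egr families. Acute graft-versus-host disease is driven by donor T cells that recognise recipient antigens in this way.

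The population was a cut through a graded range of chemokine levels and not a separate peak. Among the 2357 non-cycling CD8 T cells of day +7, 4.16% (exact binomial 95% interval 3.39 to 5.04) lay over the cut, and among the 2296 of day +14 the share was 13.2% (11.9 to 14.7). With each cell thinned to 4000 UMIs before the rule was applied, and shallower cells left out, the shares were 4.47% and 14.5%. These intervals, like all others here, cover counting error only. Just outside the cut were cells at 19.95 and 19.94 UMIs per 10000 at day +7 and day +14, and just inside it cells at 20.26 and 20.01. Between 15 and 20 per 10000 there were 33 and 87 cells, and between 20 and 25 there were 18 and 54, whereas 1115 and 678 non-cycling CD8 T cells had none of the 4 transcripts. The median of the chemokine-high cells was 41.4 per 10000 at day +7 and 42.7 at day +14, and the highest cells reached 998 and 689. A small number of cells held much of the signal, since the 10 highest of the 98 cells at day +7 carried 50.2% of the 4 genes' UMIs in the population, and the 30 highest of 304 at day +14 carried 35.2%. Among cycling CD8 T cells, which were left out by the rule, 2.14% and 8.07% passed the same cut.

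**Figure D1:**
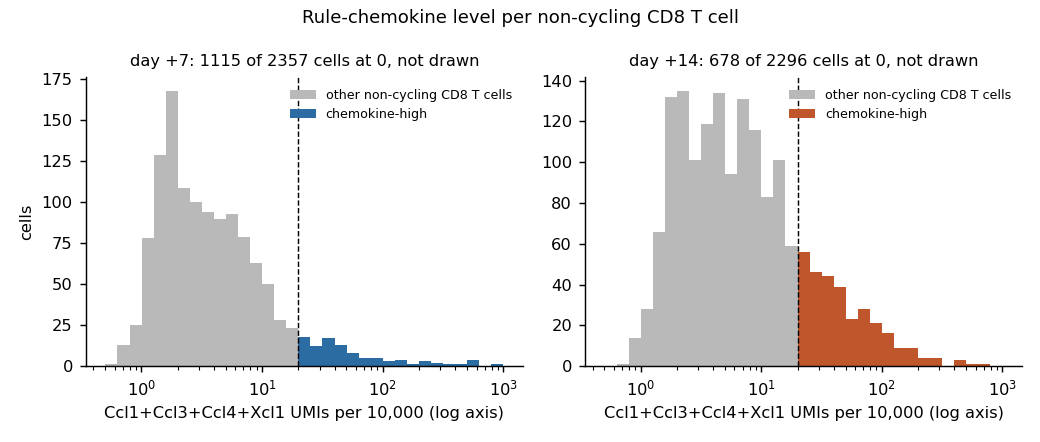
Number of non-cycling CD8 T cells (y axis) by the summed UMIs of Ccl1, Ccl3, Ccl4 and Xcl1 per 10,000 (log x axis), with grey bars for cells under the cut of 20 (dashed line) and colored bars for chemokine-high cells. The 1115 and 678 cells without such a UMI are not drawn, and the counts fall off across the cut without a gap in either library.

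Chemokine-high cells were of ordinary depth. Their median was 6910 UMIs at day +7 against 6615 in the other non-cycling CD8 T cells, and 5695.5 against 5381 at day +14, and the mitochondrial median was 2.38% against 2.61% and 2.47% against 2.56%. Of 20 barcodes that both libraries shared, none belonged to this population in both libraries. The T cell markers named in the rule were present, as required, and Cd8b1, which encodes the CD8 beta chain, stood at a level of 847 CPM on day +7 (a gene's UMIs per 1e6 UMIs of its cells), against 842 CPM in the other cells. The defining B cell markers Ms4a1 and Cd79a and the innate lymphocyte markers Ncr1 and Zbtb16 had no UMI in either library's chemokine-high cells. Of the 10 myeloid markers 7 had a UMI at day +7 and 10 at day +14, summing to 45.4 and 119 CPM against 76.7 and 270 CPM in the other cells. The B cell list (7 genes, 3 and 4 with a UMI) summed to 154 and 131 CPM against 186 and 373, the erythroid list (9 genes, 2 and 7 with a UMI) to 2.67 and 29.3 CPM against 7.67 and 29.0, and the NK and innate T list (9 genes, 4 and 6 with a UMI) to 131 and 169 CPM against 194 and 103. The platelet list had 0 and 1 UMI.

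Ccl4 led the chemokine signal in most cells. The values of the 4 genes that define the population are a description of what the rule selected and carry no test. Ccl4 stood at 6048 CPM on day +7 (exact Poisson 95% interval 5873 to 6227) and 3771 CPM at day +14 (3685 to 3859), against 143 and 203 CPM in the other non-cycling CD8 T cells, and was detected in 100% and 96.4% of chemokine-high cells. Ccl3 was at 1509 and 1958 CPM against 58.5 and 139 CPM, with a UMI in 90.8% and 95.1% of cells. The pair was nearly always together, since 89 of 98 and 284 of 304 cells had UMIs of both.

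Xcl1 and Ccl1 were made by a minority. Xcl1 was at 1262 and 692 CPM on day +7 and day +14 against 8.55 and 54.6 CPM, and 34.7% and 25% of chemokine-high cells had a UMI of it. Ccl1 was at 339 and 87.8 CPM against 2.01 and 1.03 CPM, in 11.2% and 4.93% of cells. Single cells weighed heavily here, since the highest cell held 371 of the 944 Xcl1 UMIs and the highest held 100 of the 254 Ccl1 UMIs at day +7, and at day +14 the highest held 154 of 1324 and 60 of 168. In myeloid- and erythroid-gated cells of the same libraries, which have few T cell receptor UMIs and served as a background for T cell transcripts although myeloid cells can make Ccl3 and Ccl4, Xcl1 was found in 0 of 154 cells at day +7, which allows a share of cells with a UMI of up to 1.95%, and in 0 of 83 at day +14, which allows up to 3.61%. These limits for a count of 0 are 3 cells over the number examined, and the upper ends of the exact 95% intervals were 2.37% and 4.35%. Ccl4 was found there in 4.55% and 6.02% of cells, at a median of 13963 and 4887 UMIs per cell.

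Across the chemokine-high cells the log levels of Ccl3 and Ccl4 went together, with Pearson's r of 0.53 over 98 cells at day +7 and 0.55 over 304 cells at day +14, and those of Xcl1 and Ccl1 with r of 0.53 and 0.36. Ccl4 and Xcl1 had r of -0.01 and -0.26. These values are given without a p, because the cells of a library share depth and source and because the rule bounds the sum of the 4 genes.

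In the GENCODE annotation of GRCm38, the build that the submitters' processing notes name as mm10, Ccl3 (chr11:83647844-83649355, minus strand) and Ccl4 (chr11:83662584-83664683, plus strand) lie next to each other, Ccl1 (chr11:82176657-82305690, minus strand) is on the same chromosome, and Xcl1 (chr1:164931644-164935527, minus strand) is on another. The 250 bases before the RefSeq start of the genes that had an entry (GRCm38.p6) are shown because these genes define the population. The GENCODE span of Ccl1 begins further upstream than its RefSeq start, so the Ccl1 window lies within that span. They are written 5′ to 3′ on the gene's strand, with letters that match a searched motif in capitals.
Ccl3, chr11:83649379-83649628, minus strand: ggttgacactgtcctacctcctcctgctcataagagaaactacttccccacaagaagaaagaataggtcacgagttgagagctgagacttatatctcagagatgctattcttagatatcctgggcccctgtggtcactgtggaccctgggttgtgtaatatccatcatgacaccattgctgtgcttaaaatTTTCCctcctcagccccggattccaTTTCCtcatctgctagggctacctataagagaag
Ccl1, chr11:82179813-82180062, minus strand: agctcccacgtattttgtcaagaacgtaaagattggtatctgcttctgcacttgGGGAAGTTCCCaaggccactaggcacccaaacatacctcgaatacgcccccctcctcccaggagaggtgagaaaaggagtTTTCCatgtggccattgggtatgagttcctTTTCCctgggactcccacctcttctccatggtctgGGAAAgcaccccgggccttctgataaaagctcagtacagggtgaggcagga
Xcl1, chr1:164935523-164935772, minus strand: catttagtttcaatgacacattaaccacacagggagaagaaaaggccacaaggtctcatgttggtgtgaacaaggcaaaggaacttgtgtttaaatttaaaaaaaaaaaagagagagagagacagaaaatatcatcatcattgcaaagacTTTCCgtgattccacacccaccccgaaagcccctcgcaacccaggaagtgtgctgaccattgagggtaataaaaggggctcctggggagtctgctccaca
The motifs searched on both strands were the NFAT core GGAAA, the AP-1 site TGANTCA, the cyclic AMP response element TGACGTCA, the Nr4a response element AAAGGTCA, the Egr site GCGNGGGCG and the NF-kB consensus. The NFAT core was found at positions -59 and -34 of the Ccl3 window, at -116, -86 and -51 of the Ccl1 window and at -100 of the Xcl1 window, counted back from the start, and the Ccl1 window also held an NF-kB consensus that matched on both strands at -196 and -195. Such letters are frequent. The NFAT core occurred in 55.6% of 32851 windows of this length and the NF-kB consensus in 7.25%, and a match is a description of the sequence and not a site. Of the genes that stood higher in both libraries and are named below, 17 of 20 had a window, and 11 of these held the NFAT core, beside 59.5% of the 4941 genes compared that had a window.

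The genes that accompanied the chemokines were compared with the other non-cycling CD8 T cells of the same library, which numbered 2259 on day +7 and 1992 on day +14. Levels are the UMIs of all cells of a class added up and scaled to its total, and log2 ratios were computed with 1 CPM added to each level. Genes at a mean of 10 CPM or more were compared, and a gene was counted when it differed at least 2-fold, with no test behind the count. Of 6299 genes at day +7, 188 were at least 2-fold higher in chemokine-high cells (2.98%) and 90 at least 2-fold lower (1.43%), the latter including genes with few UMIs. Of 6968 genes at day +14, 36 were higher (0.517%) and 25 lower (0.359%). Among 6128 genes at this level in both libraries, 20 were at least 2-fold higher in both (0.326%) and 2 lower in both (0.0326%). The 20 were Rgs16, Nr4a2, Nr4a3, Hivep3, Srm, Nfkbid, Irf8, Ifng, Rel, Havcr2, Zfp36l1, Gpr65, Irf4, Egr3, Myc, Nr4a1, Tagap, Tnf, Tnfsf14 and Pdcd1lg2, and the 2 were Pik3ip1 and Il7r.

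Transcripts induced early after T cell receptor engagement stood higher in chemokine-high cells in both libraries. Of the 21 genes of the early response list that were compared at day +7, 13 were at least 2-fold higher and 0 at least 2-fold lower, with a median log2 ratio of 1.47, and at day +14 the counts were 12 and 0 of 22 with a median of 1.17. The medians of all genes compared were 0.021 and 0.0078. Stimulation itself was not measured, so the working name of recently stimulated cells rests on these transcripts. The list was chosen with earlier results of these data known.

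The Nr4a genes encode orphan nuclear receptors that report recent receptor signalling. Nr4a2 stood at 108 CPM in chemokine-high cells against 35.1 CPM in the others at day +7, a log2 ratio of 1.60 (exact interval of the ratio without added CPM 1.27 to 1.96), and at 352 against 91.4 CPM at day +14, a log2 ratio of 1.93 (1.80 to 2.09). It was detected in 43.9% against 17.4% of cells at day +7 and in 68.8% against 30.5% at day +14. Nr4a1 was at 32.1 against 9.30 CPM and at 37.6 against 6.95 CPM, and Nr4a3 at 32.1 against 4.21 CPM and at 25.6 against 3.60 CPM. All Nr4a genes were thus at least 2-fold higher in each library.

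The Egr genes encode zinc finger factors induced through the MAP kinase and calcium branches. Egr3 was at 46.8 CPM against 0.75 CPM at day +7 and at 25.1 against 1.80 CPM at day +14, and was detected in 19.4% against 0.487% of cells and in 12.2% against 0.853%. Egr2 was at 17.4 against 0.440 CPM at day +7, where its mean was under the minimum for counting, and at 39.2 against 3.60 CPM at day +14, a log2 ratio of 3.13. Egr1 rested on 15 UMIs in 8 cells at day +7, with a log2 ratio of 0.96, and had 156 UMIs in 69 cells and a log2 ratio of 2.23 at day +14.

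Counted as any UMI of the Nr4a and Egr genes after each cell was thinned to 4000 UMIs, 50.5% of chemokine-high cells at day +7 and 69.3% at day +14 were positive, against 18.7% and 30.6% of the other non-cycling CD8 T cells. Before thinning the shares were 67.3% and 78.9% against 27.9% and 38.5%. In the myeloid- and erythroid-gated cells the share before thinning was 16.9% at day +7 and 10.8% at day +14, at a median of 13963 and 4887 UMIs, and in the erythroid-gated cells of day +7 it was 19.8% before thinning and 2.60% after it. Thinning left out 1 chemokine-high cell at day +7 and 40 at day +14.

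Of the other members of the early response list, some were past 2-fold in both libraries, some in 1 and some in neither. Nfkbid, an atypical I-kB protein, was at 54.8 against 10.4 CPM and at 27.7 against 10.7 CPM, and Rel, the c-Rel subunit, at 84.2 against 28.7 CPM and at 76.3 against 28.9 CPM. Irf4, a factor whose level follows receptor signal strength, had log2 ratios of 1.83 and 1.63, and Myc had 1.67 and 1.47. The membrane activation marker Cd69 was not past 2-fold, with log2 ratios of 0.24 at day +7 and 0.39 at day +14, and neither was Bhlhe40, with -0.01 and 0.07. Gadd45b had a log2 ratio of 1.14 at day +7 and 0.09 at day +14.

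**Figure D2:**
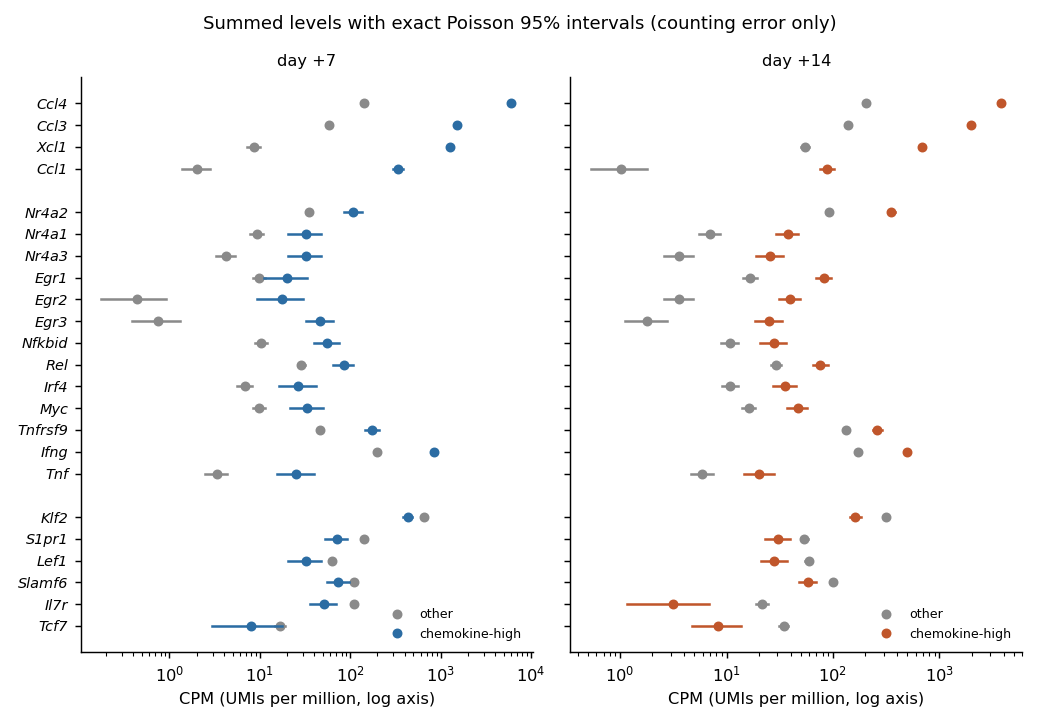
Levels of named genes (log x axis, CPM) in chemokine-high cells (blue at day +7, orange at day +14) and other non-cycling CD8 T cells (grey), with points for summed UMIs over total UMIs and bars for exact Poisson 95% intervals. The chemokine genes at the top were used by the rule. Egr3 stood at 46.8 against 0.75 CPM at day +7, and the genes at the bottom lay lower in chemokine-high cells.

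Outside the lists, the gene furthest from the other cells in both libraries was Rgs16, a GTPase-activating regulator of chemokine receptor signalling. It stood at 76.2 against 7.42 CPM at day +7, a log2 ratio of 3.20 (2.88 to 3.83), and at 156 against 43.8 CPM at day +14, a log2 ratio of 1.81 (1.62 to 2.04), and was found in 38.8% against 4.83% and in 52.0% against 18.3% of cells. Among genes at 50 CPM or more, the next in the ranking by the smaller of the 2 libraries' ratios included Zfp36l1, an RNA-binding protein that destabilises AU-rich transcripts, with log2 ratios of 1.35 and 1.22, and Gpr65, a proton-sensing receptor, with 1.27 and 1.03. Crtam, an activation-induced adhesion receptor that is also in the costimulatory receptor list, had 1.05 and 0.90, and Samsn1 had 1.06 and 0.83. At day +14, 75 of the 126 Crtam UMIs lay in the 24 cells in which Xcl1 was the leading chemokine. In the 225 cells led by Ccl4, Crtam was at 31.1 CPM, against 34.7 CPM in the other non-cycling CD8 T cells. The day +7 values were 42.5 against 29.8 CPM.

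Cytokine and death ligand transcripts were higher in part. At day +7, 7 of the 9 cytokine and death ligand genes compared were at least 2-fold higher and 0 lower, with a median log2 ratio of 1.73, and at day +14 the count was 3 of 9 with a median of 0.59. Ifng, the gene of interferon gamma, stood at 837 against 198 CPM at day +7 and at 494 against 171 CPM at day +14, with log2 ratios of 2.07 (1.95 to 2.20) and 1.52 (1.41 to 1.64), and was detected in 87.8% against 60.1% and in 76.0% against 48.1% of cells. A single cell held 193 of the 626 Ifng UMIs at day +7, and without it the log2 ratio was 1.56. Tnf was at 25.4 against 3.33 CPM and at 20.4 against 5.92 CPM. Tnfsf14 (LIGHT), a ligand of the herpesvirus entry mediator, had log2 ratios of 1.99 and 1.24. Tnfsf9 (4-1BBL) had 2.24 at day +7 and 0.42 at day +14, and Fasl, the ligand of Fas, had 1.05 and 0.59. Ltb lay the other way in both libraries, with log2 ratios of -0.52 and -0.30.

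Cytotoxic granule genes differed little. Of 11 genes of the granzyme and perforin list compared, 0 were past 2-fold at day +7, with a median log2 ratio of 0.11, and 1 at day +14, with a median of 0.31. The 1 gene was Gzmf, and 72 of its 73 UMIs lay in a single cell. Gzmb stood at 1296 against 1044 CPM and at 637 against 492 CPM, Prf1 at 254 against 178 CPM and at 303 against 192 CPM, and Nkg7 at 2944 against 2284 CPM and at 3639 against 2945 CPM. Ccl5, a chemokine that memory CD8 T cells keep as a stored transcript, was at 8756 against 5891 CPM and at 18009 against 13502 CPM, with log2 ratios of 0.57 and 0.42.

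Some costimulatory and inhibitory receptor transcripts stood higher, and the ratios were larger at day +7 than at day +14 for most of those named, a difference that was not tested. Of 13 costimulatory receptors compared at day +7, 3 were at least 2-fold higher, with a median log2 ratio of 0.40, and of 12 at day +14, 0 were, with a median of 0.28. Tnfrsf9 (4-1BB), a receptor induced by antigen stimulation, stood at 174 against 45.7 CPM at day +7, a log2 ratio of 1.90 (1.64 to 2.20), and at 262 against 132 CPM at day +14, a log2 ratio of 0.99 (0.84 to 1.14). Tnfrsf4 (OX40) had log2 ratios of 1.96 and 0.66, with 1.60 at day +7 once the cell with the most UMIs was left out. Havcr2 (Tim-3) was at 134 against 56.5 CPM and at 121 against 60.1 CPM, Pdcd1 (PD-1) at 289 against 168 CPM and at 438 against 341 CPM, and Lag3 at 179 against 103 CPM and at 335 against 240 CPM. Of 9 inhibitory receptor and Tox genes compared at day +7, 3 were past 2-fold higher, with a median log2 ratio of 0.78, and of 10 at day +14, 1 was, with a median of 0.27. Tox itself had 0.64 and 0.20, and Ctla4 had 0.08 and -0.12.

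Naive and memory-associated transcripts lay mostly lower, with 10 of 10 genes under 0 at day +7 and 8 of 9 at day +14. Of 10 such genes compared at day +7, 0 were at least 2-fold higher and 2 at least 2-fold lower, with a median log2 ratio of -0.82, and of 9 at day +14, 0 were higher and 3 lower, with a median of -0.91. Over all genes compared the median log2 ratios were 0.021 and 0.0078. Il7r, the interleukin-7 receptor, stood at 50.8 against 111 CPM at day +7 and at 3.14 against 21.4 CPM at day +14, the latter from 6 UMIs in 4 cells. Tcf7 (TCF-1) was at 8.02 against 16.8 CPM, from 6 UMIs, and at 8.36 against 34.6 CPM. Lef1 had log2 ratios of -0.96 and -1.04. Klf2, which maintains the egress program, was at 432 against 647 CPM and at 163 against 317 CPM, and S1pr1, the sphingosine receptor that Klf2 controls, at 70.8 against 142 CPM and at 30.3 against 54.0 CPM. Emb, a glycoprotein partner of monocarboxylate transporters, had -0.91 and -1.19, and Bcl2, the survival gene, -1.03 and -0.68. Bcl2a1b, another member of its family, lay the other way, with 1.78 and 0.71.

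Ribosome biogenesis genes were in part past 2-fold at day +7 and in no case at day +14. Of 14 genes compared, 8 were at least 2-fold higher at day +7, with a median log2 ratio of 1.05, and 0 at day +14, with a median of 0.27. Per cell, the median of their summed UMIs was 20.4 against 17.3 per 10000 at day +7 and 20.8 against 19.1 at day +14. Their summed level was 4711 CPM in the 34 chemokine-high cells with an Xcl1 or Ccl1 UMI at day +7 and 2059 CPM in the 64 without, and 3413 and 2272 CPM in the 81 and 223 cells of day +14. The cells with such a UMI were deeper, at a median of 8621 against 6049 UMIs on day +7. Ncl (nucleolin) was at 671 against 338 CPM and at 520 against 439 CPM, Fbl (fibrillarin) had log2 ratios of 1.30 and 0.25, and Gnl3 (nucleostemin) 1.45 and 0.91. Srm, which encodes spermidine synthase, was at 73.5 against 11.4 CPM and at 35.5 against 15.8 CPM. The genes of the oxidative pentose phosphate pathway, including Pgd, which encodes 6PGD, were not past 2-fold. Pgd was at 29.4 against 33.2 CPM at day +7 and at 33.5 against 40.7 CPM at day +14, resting on 22 and 64 UMIs. Glycolysis genes had median log2 ratios of 0.24 and -0.10, with Gapdh at 0.07 and -0.10.

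Transcripts that tissue handling is known to induce were measured beside these. Of 16 genes of the handling and heat shock list, 1 was past 2-fold at day +7, with a median log2 ratio of 0.24, and of 15 at day +14, 0 were, with a median of 0.12. Fos had log2 ratios of 0.36 and 0.90, Jun of -0.71 and -0.27, and Junb of 0.25 and 0.02, and the summed level of the list was 4068 against 3400 CPM and 3543 against 3252 CPM. Its part in the other differences was not tested.

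**Figure D3:**
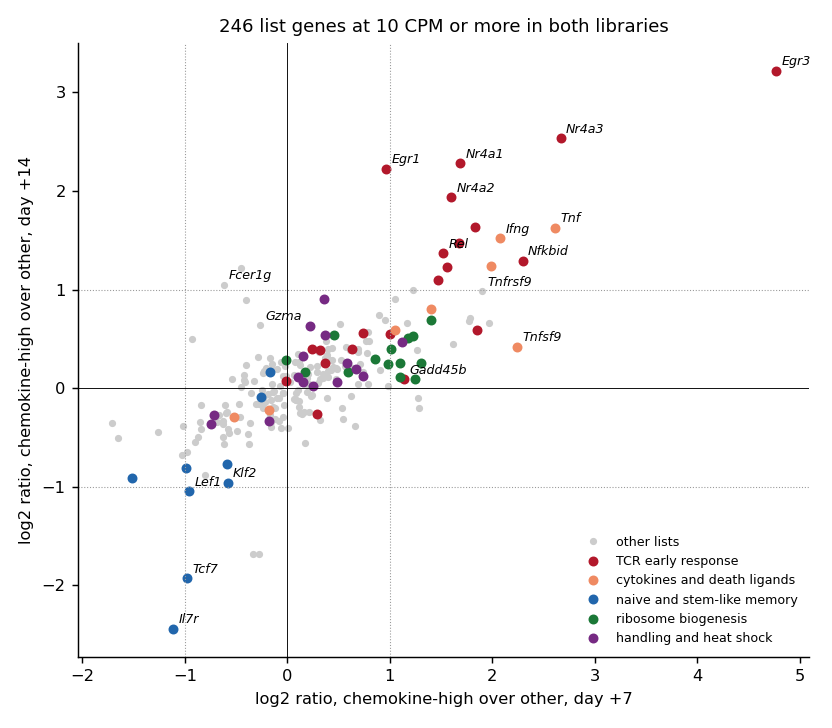
Log2 ratio of chemokine-high over other non-cycling CD8 T cells at day +7 (x axis) and day +14 (y axis) for the 246 list genes at 10 CPM or more in both libraries, colored by list, with dotted lines at 2-fold and the rule genes left out. Early response genes such as Nr4a3 (2.67 and 2.53) lie in the upper right and naive genes such as Il7r (-1.11 and -2.44) in the lower left.

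The same genes were graded below the cut as well. Non-cycling CD8 T cells were placed in 7 bins of chemokine level, from cells without a UMI (1115 at day +7 and 678 at day +14) to cells at 80 or more per 10000 (25 and 68). The summed level of the early response list was 1015 and 1050 CPM in cells without a chemokine UMI, 1633 and 1613 CPM between 10 and 20 per 10000, and 2750 and 3048 CPM in the highest bin. Nr4a2 was at 26.2 and 60.2 CPM in the lowest bin and at 236 and 595 CPM in the highest. Ifng ran from 158 and 135 CPM to 2085 and 932 CPM, and Tnfrsf9 from 44.3 and 111 CPM to 241 and 342 CPM. The bins include the single chemokine-high cell that held 193 of the 626 Ifng UMIs at day +7.

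Klf2 ran the other way, from 651 and 406 CPM in cells without a chemokine UMI to 198 and 73.5 CPM in the highest bin, and S1pr1 from 140 and 75.8 CPM to 64.3 and 14.2 CPM. Egr2 was at 0.260 and 1.37 CPM in the lowest bin and at 26.8 and 109 CPM in the highest. Ccl5 was graded mainly below the cut, with 4664 and 11647 CPM in the lowest bin, 9708 and 18925 CPM between 10 and 20 per 10000, and 9016 and 18232 CPM in the highest. Median depth per cell differed little across the bins, from 5885 to 7138 UMIs at day +7 and from 5139 to 5801 at day +14. The handling and heat shock list ran from 3342 and 3090 CPM to 4615 and 3904 CPM.

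**Figure D4:**
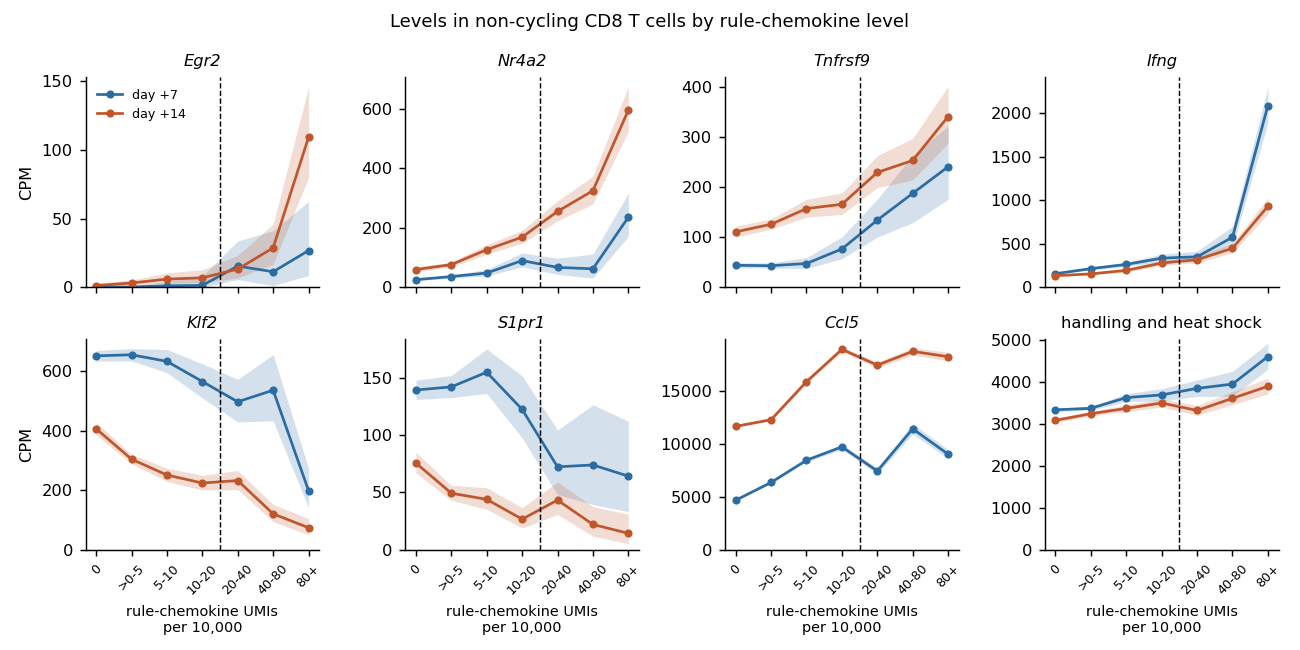
Level (CPM, y axis) of 7 genes and of the summed handling and heat shock list in bins of chemokine UMIs per 10,000 (x axis) among non-cycling CD8 T cells of day +7 (blue) and day +14 (orange), with exact Poisson 95% intervals shaded and the cut of 20 dashed. Nr4a2 stood at 236 and 595 CPM in the highest bin against 26.2 and 60.2 CPM in the lowest, and Klf2 at 198 and 73.5 CPM against 651 and 406 CPM.

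The cells differed among themselves in the chemokine they made most. Ccl4 had the most UMIs of the 4 genes in 80 of 98 cells at day +7 and 225 of 304 at day +14, Ccl3 in 7 and 43, Xcl1 in 9 and 24, and Ccl1 in 2 and 2, with 10 ties at day +14. The genes compared between these groups were chosen after their values were seen, and the 9 Xcl1-led cells of day +7 are few.

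Xcl1-led cells of day +14 carried less Gzma and Gzmb and more Crtam than Ccl4-led cells, while the summed granzyme and perforin list, which also holds Nkg7, Srgn and other granule genes, was at 6113 against 7622 CPM. Crtam was detected in 70.8% of 24 Xcl1-led cells (48.9 to 87.4) against 13.8% of 225 Ccl4-led cells (9.56 to 19.0), at 424 against 31.1 CPM, and in 0 of 83 myeloid- or erythroid-gated cells, which allows up to 3.61%. After thinning the shares were 66.7% and 10.9%. Gzma had 1 UMI in the Xcl1-led cells, in 4.17% of them against 32.9% (2.41% of the gated cells), and Gzmb was detected in 29.2% against 76.0%. Ccl5 was at 4296 against 19647 CPM. Nkg7 was detected in 100% of both groups, and Nr4a2 in 66.7% against 70.2%, although the level of Nr4a2 was 617 CPM (507 to 744) against 336 CPM (307 to 368).

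Tcf7 was found in 33.3% of the Xcl1-led cells against 2.22% of the Ccl4-led cells, and after thinning in 8.33% against 1.55%, close to the level of a single UMI per cell. Id3 was found in 20.8% against 0.889%, and a single cell held 37.5% of the Id3 UMIs of the Xcl1-led cells. Slamf6, a marker of stem-like CD8 T cells, was found in 50% against 20.9%. Klf2, of the same list of naive and memory-associated genes, lay the other way, in 16.7% against 34.7% of cells and at 56.6 against 153 CPM. Tnfrsf4 was found in 62.5% against 25.3% and Rel in 70.8% against 30.7%. Ribosome biogenesis transcripts summed to 4811 against 2345 CPM. The median depth of Xcl1-led cells was 7263.5 UMIs, that of Ccl4-led cells 5631.

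At day +7, Crtam was found in 88.9% of the 9 Xcl1-led cells against 25% of the 80 Ccl4-led cells, Tnfrsf9 in 100% against 45%, and Klf2 in 33.3% against 76.2%. The Xcl1-led cells were deeper, at a median of 10149 against 6387 UMIs, and after thinning the shares were 55.6% against 15% for Crtam, 66.7% against 35% for Tnfrsf9 and 22.2% against 67.5% for Klf2. Ccl5 was at 1078 against 9812 CPM. Gzmb and Tnfrsf4 lay in the same direction as at day +14, in 77.8% against 93.8% and in 33.3% against 15% of cells. Some other differences of day +14 were not seen at day +7. Rel was at 81.4 against 85.1 CPM, and Slamf6 was found in 22.2% against 21.2% after thinning. Nr4a2 was found in 44.4% against 45% of cells before thinning and in 0% against 32.5% after it. Its level was 71.2 CPM (28.6 to 147), from 7 UMIs, against 121 CPM (94.4 to 152), with overlapping intervals. Tcf7 and Id3 each had UMIs in only a single Xcl1-led cell. The level of Gzma was lower, as at day +14, at 956 against 4460 CPM. Its share of cells with a UMI lay the other way, at 100% against 77.5%, with 18.2% in gated cells. Cells led by Ccl3 at day +14 had no Egr2 UMI in 43 cells, which allows up to 6.98% of cells with a UMI and sets no limit on cells that express it, Rel in 6.98% of cells, and an early response level of 1312 CPM against 2142 CPM in Ccl4-led cells.

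**Figure D5:**
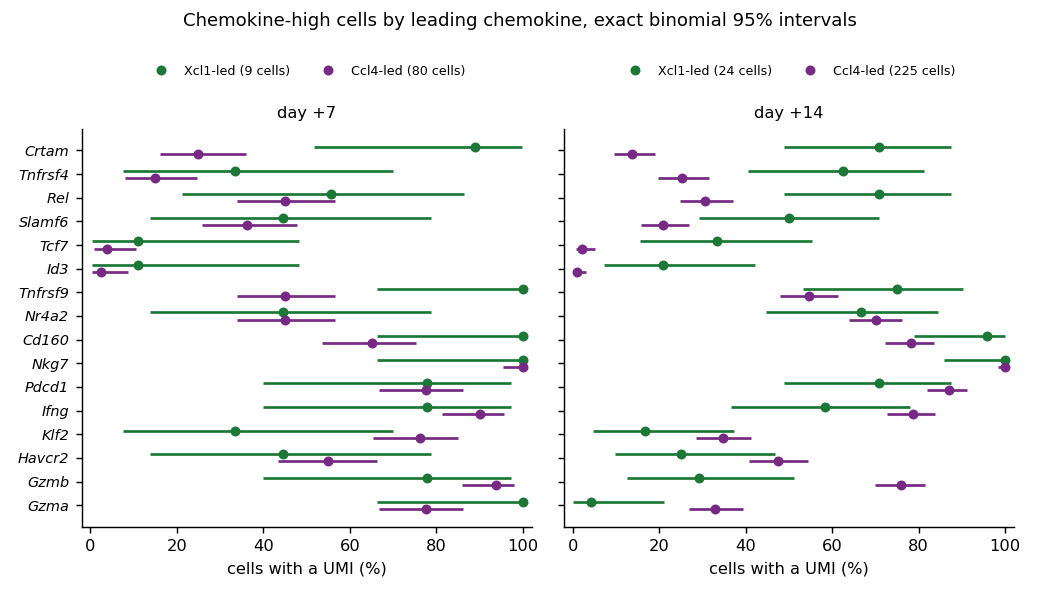
Percent of cells with a UMI (x axis) for 16 genes in chemokine-high cells led by Xcl1 (green) or Ccl4 (purple) at day +7 and day +14, with exact binomial 95% intervals as bars. At day +14 the intervals for Crtam (70.8% against 13.8%) and Gzmb (29.2% against 76.0%) lie apart, while those for Nr4a2 overlap.

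The 12 highest and 12 lowest genes of day +14 over day +7 in chemokine-high cells, at 50 CPM or more, lay in the same direction in the other cells. Shared direction was not counted over all genes. Of 6640 genes compared, 556 were at least 2-fold higher at day +14 (8.37%) and 125 lower (1.88%), against 259 (3.89%) and 87 (1.31%) of 6656 in the other cells, where more cells gave more UMIs per gene. The interferon-induced transmembrane gene Ifitm1 stood at 649 and 16.7 CPM on day +7 and day +14 in chemokine-high cells, and the log2 ratio of day +14 over day +7 was -5.20 there and -3.85 in the others. Ifitm3 had -4.87 and -4.40 and Gzma -2.55 and -3.45.

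Cd7 was higher at day +14, at 928 against 110 CPM, with log2 ratios of 3.07 and 3.03, and Ikzf2, which encodes Helios, at 112 against 14.7 CPM, with 2.85 and 2.24. Rora stood at 97.8 against 17.4 CPM in chemokine-high cells, with 2.43 and 1.27. Nr4a2 had a log2 ratio of day +14 over day +7 of 1.69 in chemokine-high cells and of 1.36 in the others. Whether the difference between days differed between the 2 kinds of cell was not tested.

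Cycling CD8 T cells over the same cut gave a like pattern for early genes. The early response list had a median log2 ratio of 1.11 at day +7, with 11 of 20 genes at least 2-fold higher, and 1.15 at day +14, with 13 of 22. Of all genes compared in the cycling cells, 62 of 6526 (0.95%) and 34 of 6992 (0.486%) were at least 2-fold higher. T cell receptor beta variable transcripts were found in 23 of 98 and 75 of 304 chemokine-high cells, or 23.5% and 24.7%, against 24.4% and 25.1% of the other non-cycling CD8 T cells. The most frequent segment at day +14, Trbv17, led in 17.3% of the chemokine-high cells with such a UMI (9.57 to 27.8) and in 16.4% of the other cells with one (13.3 to 19.9). Among the 23 cells of day +7 the most frequent was Trbv12-1, which led in 17.4% (4.95 to 38.8) against 3.81% (2.37 to 5.77). Trbv29 led in 0% of them (0 to 14.8) against 10.5% (8.09 to 13.4). Segment use was not tested.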

How the data were processed

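Donor T cells were sorted and made into 1 droplet library for day +7 and 1 for day +14. The authors deposited raw UMI counts per gene and barcode, made with Cell Ranger 6.1.2 on mm10 (per the submitters' processing notes), with no normalization. Kept barcodes had 500 to 7500 genes and at most 15% mitochondrial UMIs, which left 7179 and 7794 cells, at a median of 9210 and 8144 UMIs. CD8 T cells had at least 3 UMIs of the CD3 and T cell receptor constant genes (Trac, Trbc1, Trbc2, Cd3d, Cd3e and Cd3g), at least 2 of Cd8a and Cd8b1 and none of Cd4 or Foxp3, and cells with 3 or more UMIs of Mki67, Top2a, Cdk1 and Pclaf were called cycling. UMIs were summed over cells of a class and scaled to the class total (CPM). Because each day has 1 library, there was no test between days or classes, and no p-value is given. Intervals are exact at 95% (Poisson, binomial and conditional binomial), and the limit given for a count of 0 is 3 cells over the number examined, for cells with a UMI. Scrublet (scanpy 1.11.5, Python 3.11.15) marked 0% of cells at its own threshold, so the highest 5% of scores stood in for it as an alternative, in which 0 and 2 chemokine-high cells were removed. The ratios, their intervals and the 2-fold call were tested on simulated Poisson counts of class sums, which leave out differences between cells. Named genes were the rule genes, listed genes, and the 12 highest and lowest by ratio at 50 CPM or more, with the genes compared by leading chemokine picked from their values. The members and gene lists were chosen with earlier results of these data known.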

Additional observations from a re-analysis of the deposited data

Results flagged for a closer look

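Gzma, Il2rb, Tpi1, Ifitm2 and Fcer1g lay in opposite directions in the 2 libraries. The ratios are of chemokine-high over other non-cycling CD8 T cells, with intervals on opposite sides of equality, and the difference between libraries was not tested. Gzma had a log2 ratio of 0.64 at day +14 and -0.27 at day +7, Il2rb 0.13 and -0.42, Tpi1 -0.20 and 0.53, Ifitm2 0.90 and -0.41, and Fcer1g 1.05 and -0.62. For Fcer1g a single cell held 56 of 137 UMIs at day +14, and without it the log2 ratio was 0.31.

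The same chemokines were present outside CD8 T cells. CD4 T cells, with a Cd4 UMI and no Cd8 or Foxp3 UMI, held them at a sum of 798 and 1040 CPM on day +7 and day +14. Erythroid-gated cells had 2.86 CPM at day +7, from 7 UMIs in 96 cells. At day +14 they had 13.3 CPM (0.34 to 74.3), from 1 UMI in 17 cells. Of the 459 and 697 CD4 T cells, 6.32% and 9.04% were over the same cut. The mix was another one, with Ccl4 at 241 and 370 CPM and Ccl1 at 358 and 185 CPM in the CD4 T cells. They held 45.6% and 51.0% of each library's Ccl1 UMIs, against 6.81% and 9.20% in the chemokine-high cells.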

How the results depend on the processing

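No paired analysis was possible because each time point has 1 library. The share of chemokine-high cells depended on the cut and gate: 8.44% and 23.9% (day +7 and day +14) at a cut of 10 UMIs per 10000, 2.16% and 6.88% at 40, and 2.98% and 10.1% without the cycling gate. It stayed higher at day +14 in each of these.

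Counts of genes past 2-fold moved as follows (day +7 higher and lower, then day +14). At a cut of 10 they were 53 and 16, then 21 higher, and 13 higher and 1 lower in both libraries. At 40 they were 379 and 364, then 77 and 64, with 41 and 17 in both, and between days 915 and 243. With 5 CPM added they were 112 and 41, then 20 and 14, with 1 lower in both, and between days 343 and 80. With no minimum they were 694 and 1022, then 222 and 307, with 43 and 60 in both, and between days 2409 and 770. At a minimum of 50 CPM they were 35 and 6, then 8 and 5, with 6 and 0 in both, and between days 60 and 33. Thinned to 4000 UMIs, lower counts were 192, 56, 6 in both and 229 between days. By the mean over cells 5 were lower in both, without cells holding other-lineage UMIs 141 were lower at day +7, and against cells under 5 UMIs per 10000 there were 33 higher and 7 lower in both. All other settings of these counts stayed within 1.5 times.

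Reversed values were few. The other-chemokine median between days was -0.020 at a cut of 40. B cell marker medians between days in the other cells were -1.41 at a cut of 40, -1.47 by the mean over cells, -1.39 thinned and -1.64 without other-lineage cells. With no minimum the myeloid median at day +14 was 0.48 and between days in the other cells -0.16. Without other-lineage cells Jchain was 0.82 at day +14 and -0.24 between days in the other cells, and S100a8 was 0.68 at day +14. Gzmf at day +14 was -3.08 without the 1 cell with most of its UMIs, a setting chosen after seeing the data. With the cell holding the most UMIs of each gene left out in the same way, 537 of 569 ratios kept their side of 2-fold, 17 were newly past it, 14 no longer past it and 1 reversed. The cause was not tested. With 98 cells at day +7, 10 CPM is few UMIs, so small counts there carry wide counting intervals.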
